A study of Mus musculus with 6 samples.

Results

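The enzymes described here make DNA precursors and carry the folate-bound one-carbon units used for them. They were the 9 genes Tyms, Rrm1, Rrm2, Tk1, Dut, Shmt1, Shmt2, Mthfd1 and Mthfd2, found on a mouse microarray as all probe sets, the sets of short probes that read 1 transcript, whose platform annotation named 1 of these genes and no other. This gave 26 of the 45101 probe sets in the table, for 9 of 18193 genes with a probe set of their own. Levels were compared between cells of the Atoh1 lineage labelled early and late, all collected from the rhombomere 1 and isthmus region of Swiss Webster embryos at E14.5. The rhombic lip, from which cerebellar granule cells and neurons of several brainstem nuclei arise, expresses the transcription factor Atoh1.

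In all 6 samples the embryos had the alleles Atoh1-CreER and RCE, an EGFP reporter, so that every cell studied, early or late, had carried both alleles and had met tamoxifen (4 mg per 35 g of dam, by gavage). In the 3 early samples tamoxifen was given at E10.5, and in the 3 late samples at E13.5. EGFP marked cells in which CreER, driven by Atoh1, was active around the dose, and sorted EGFP-positive cells gave the RNA. The labelling day and the time from labelling to collection differed together. The labels do not say how many embryos made up a sample or whether litters were shared, and the p-values cover the spread among these arrays alone, which may be technical.

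Cells that copy their DNA need all 4 deoxynucleotides. Ribonucleotide reductase, built of the large subunit Rrm1 and the small subunit Rrm2, turns ribonucleotides into deoxyribonucleotides. Thymidylate synthase, Tyms, makes the thymine nucleotide from dUMP with a one-carbon unit from folate, Tk1 salvages thymidine, and Dut breaks down dUTP and yields dUMP. The one-carbon units come mostly from serine: Shmt1 in the cytosol and Shmt2 in mitochondria pass a carbon of serine to tetrahydrofolate, and Mthfd1 and Mthfd2, again in these 2 compartments, interconvert the folate forms that carry it. Expression of several of these enzymes is known to follow the cell cycle, and granule cell precursors of the rhombic lip divide while cells that left it earlier become neurons.

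The upstream sequences of 5 genes are shown, chosen by their motifs: Rrm1, Rrm2 and Mthfd1 as the windows with an E2F-type word, Mthfd2 for its 3 CCAAT boxes and Shmt2 as the window with no match. Each line holds the 250 bases before the RefSeq start, 5′ to 3′ in the direction of the gene, on GRCm38.p6. Capitals mark words of the E2F type (TTGGCGC or TTGCCGC or TTCGCGC or TTCCCGC) and the CCAAT box (CCAAT), on either strand.
Rrm1, chr7:102441445-102441694, plus strand: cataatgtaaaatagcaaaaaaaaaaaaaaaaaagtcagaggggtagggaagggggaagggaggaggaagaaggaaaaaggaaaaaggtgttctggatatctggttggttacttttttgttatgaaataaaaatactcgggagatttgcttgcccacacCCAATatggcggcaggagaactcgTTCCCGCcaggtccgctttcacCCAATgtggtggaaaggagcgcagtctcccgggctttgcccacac
Rrm2, chr12:24708004-24708253, plus strand: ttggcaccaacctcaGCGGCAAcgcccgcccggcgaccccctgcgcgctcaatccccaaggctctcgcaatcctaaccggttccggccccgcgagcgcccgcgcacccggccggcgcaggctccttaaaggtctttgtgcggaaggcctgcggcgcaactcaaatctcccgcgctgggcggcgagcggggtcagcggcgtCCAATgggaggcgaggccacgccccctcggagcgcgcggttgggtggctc
Mthfd1, chr12:76254982-76255231, plus strand: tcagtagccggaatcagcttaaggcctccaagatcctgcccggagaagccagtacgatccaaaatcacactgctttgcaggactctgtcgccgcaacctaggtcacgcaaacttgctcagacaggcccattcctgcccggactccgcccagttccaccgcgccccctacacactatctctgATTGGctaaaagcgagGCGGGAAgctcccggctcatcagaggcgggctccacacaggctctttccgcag
Mthfd2, chr6:83317605-83317854, minus strand: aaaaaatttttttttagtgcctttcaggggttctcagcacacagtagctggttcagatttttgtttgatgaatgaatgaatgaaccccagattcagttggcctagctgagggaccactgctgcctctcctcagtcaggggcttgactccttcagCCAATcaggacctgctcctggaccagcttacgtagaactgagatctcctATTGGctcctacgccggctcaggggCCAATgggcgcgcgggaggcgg
Shmt2, chr10:127522445-127522694, minus strand: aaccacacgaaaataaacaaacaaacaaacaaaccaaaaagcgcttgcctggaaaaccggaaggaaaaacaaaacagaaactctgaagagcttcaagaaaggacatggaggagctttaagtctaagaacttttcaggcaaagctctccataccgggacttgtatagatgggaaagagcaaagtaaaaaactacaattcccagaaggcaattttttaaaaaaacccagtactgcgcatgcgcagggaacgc

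RefSeq promoters were matched for all 9 genes. A word of the E2F type stood in 3 of the 9 windows, against 7.89% of the 32851 promoters of the same length: in Rrm1 at positions -67 to -61, in Rrm2 at -235 to -229 and in Mthfd1 at -53 to -47. A CCAAT box stood in 5 of 9 windows (33.8% of all promoters). These were the windows of Rrm1, Rrm2, Shmt1 and Mthfd1 and that of Mthfd2, which held it at 3 places. A GC box (GGGCGG) stood in 6 of 9 windows (32.7% of all) and the Myc E-box (CACGTG) in that of Tyms (6.02% of all). No window held the words of the cell cycle homology region (TTTGAA or TTCGAA, 17.1% of all) or the searched words of ATF4 (TGATGCAAT or TGATGAAAT or TGATGCAAC or TGATGAAAC, 0.718% of all). E2F factors control many genes of the G1/S transition, and ATF4 genes of serine and one-carbon metabolism. A match here describes letters in a window and shows no binding.

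**Figure D1:**
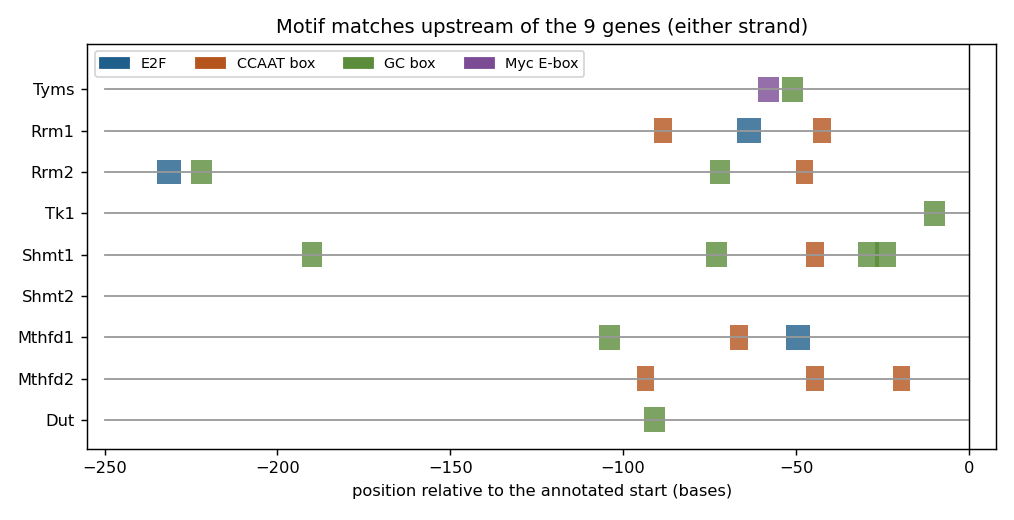
Matches to 4 motifs, on either strand, in the 250 bases before the annotated start of each of the 9 genes. The x axis gives the position relative to the start in bases and each box is 1 match. Rrm1, Rrm2 and Mthfd1 hold an E2F-type word, Mthfd2 holds 3 CCAAT boxes and Shmt2 holds no match.

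Each sample was hybridised to 1 Affymetrix mouse expression array, and 6 arrays limit the precision. Signals are MAS5 units, scaled by array, and array medians lay between 97.5 and 111 units. Atoh1, which the labelling rests on, read 397 to 936 units on early and 6819 to 9733 units on late arrays. Arrays of the early group were less alike (Spearman correlations of 0.874 to 0.893) than those of the late group (0.938 to 0.945). Arrays 3 of both groups stood apart in sex-linked signals: Xist read 166 units on early array 3 and at least 8141 units on the others, and Eif2s3y, a Y-linked gene, read 14.1 units on late array 3 and at least 826 units on the others. RNA quality was read as the 3′ over 5′ signal of the Actb and Gapdh controls. The Gapdh ratio overlapped, at 10.6 to 13.2 on early and 9.47 to 12.1 on late arrays, and the Actb ratio did not: it was 17.4 to 26.2 on early and 12.9 to 16.1 on late arrays. The part of RNA quality in the results was not tested.

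Enzymes of DNA precursor and one-carbon metabolism read higher in late cells. With limma's moderated test on log2 signals, 14 of the 26 probe sets passed a Benjamini-Hochberg adjusted p of 0.05 as higher in the late group and none as higher in the early group. Over all tested probe sets 12.5% passed as higher in the late group and 13.4% as higher in the early group. Of the 26, 6 were too dim to be tested, since a probe set had to lie above its array's median on at least 3 arrays, and 6 were tested and did not pass. The 14 passing probe sets belonged to 7 genes, with folds of late over early from 2.72 to 45.3, the last over early signals near 0 (5.73 with signals below the array median set to it). Tk1 and Mthfd2 had none. Tyms and Shmt1 were among the 7 genes through dimmer probe sets, since their brightest did not pass. By the brightest probe set of each gene, 5 of the 9 genes passed as higher in late cells and none as higher in early cells. The shares over all genes tested, read the same way, were 13.9% and 16.2%. Late signals lay above all early signals for 18 probe sets, against 24.8% of tested probe sets. The 2 Tyms probe sets tested reached the test through their late signals alone. That of Tk1, 1425179_at of Shmt1, 1416120_at of Rrm2 and 1426423_at of Shmt2 also needed late arrays. They had 1, 1, 2 and 2 early arrays above the median. Counts over tested probe sets are therefore a description. The count of 14 was 10 to 16 when any 1 array was left out, and 6 without early array 3 and late array 3 together.

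**Figure D2:**
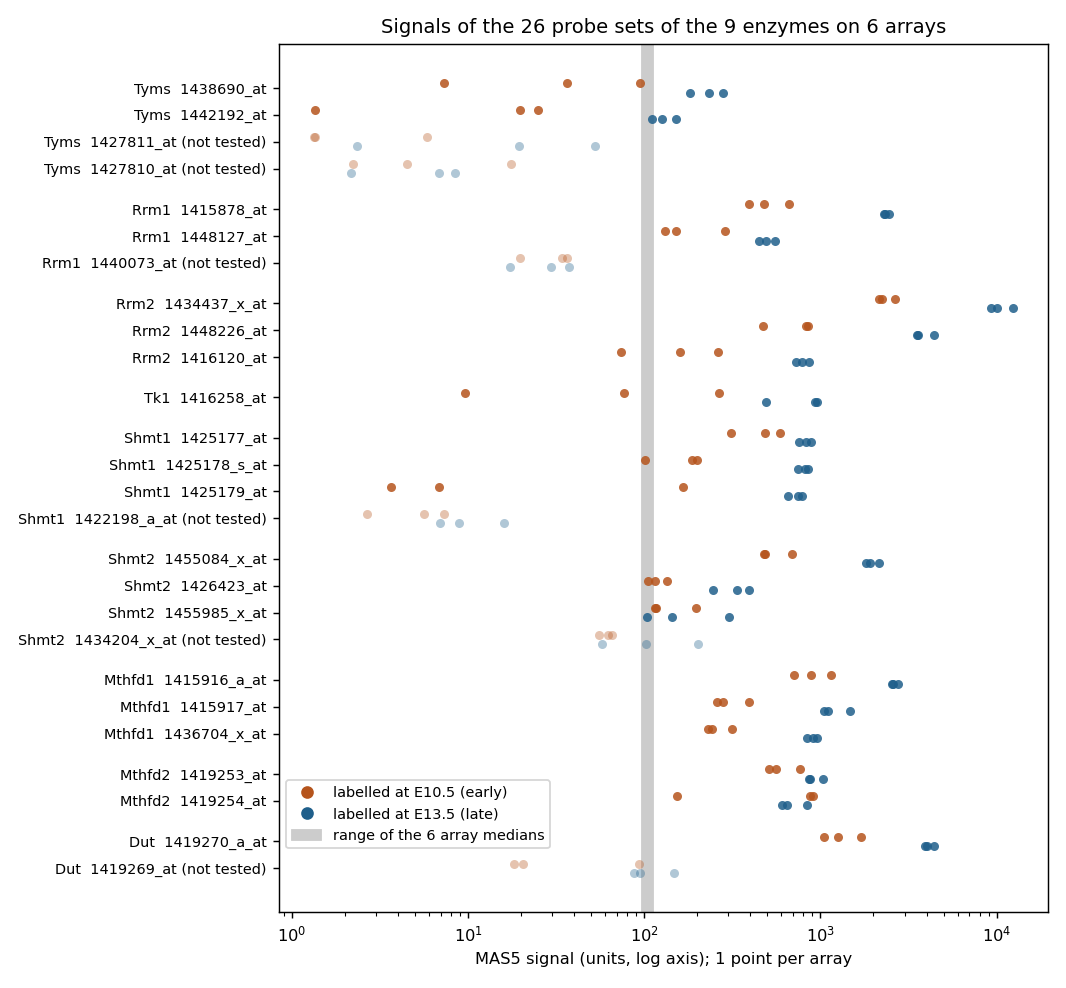
Signal of each of the 26 probe sets on each of the 6 arrays (x axis, MAS5 units, log scale; 1 point per array). Paler points are probe sets that were not tested, and the grey band spans the 6 array medians. Early and late points separate for 18 of the 20 tested probe sets, and overlap for 1419254_at of Mthfd2 and 1455985_x_at of Shmt2.

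Markers of dividing cells moved with these enzymes. All 7 measured genes of 8 on the list of cycling cells were higher in late cells, with summed signals of 4976 to 6876 units on early and 43988 to 45728 units on late arrays. Their folds ran from 5.69 for Aurka, a mitotic kinase, to 11.1 for Mki67, a marker of cycling cells. Aurka needed late arrays to reach the test, with 1 early array above the median. Of 8 markers of postmitotic neurons, 4 were higher in early cells (summed signals of 67339 to 70956 against 34969 to 39956 units) and none passed as higher in late cells. Snap25 and Nefm read higher in early cells and did not pass. Rbfox3 read 1.63-fold higher in late cells without overlap and did not pass (limma adjusted p = 0.0608), and Syt1 differed little (0.885). Over all genes tested 13.9% were higher in late and 16.2% in early cells. Fewer cells of a type and less RNA per cell cannot be told apart in bulk RNA, and the part of the cell mixture in the enzyme differences was not tested.

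Markers of other cell types were compared as summed signals. Of 6 microglia markers Csf1r alone was tested and it was higher in early cells, with list sums of 462 to 1336 against 264 to 384 units. Endothelial and pericyte sums were 640 to 2475 against 247 to 1649.8 units, with the defining Pecam1 and Cdh5 below the array median on every array, and mesenchymal sums 394 to 1752 against 293 to 549 units. Erythroid sums were 122 to 4818 against 340 to 391 units, nearly all of the upper value from Hbb-y on early array 3. Radial glial sums were 8407 to 9683 against 4571 to 6877 units, mostly from Fabp7 (means of 8432 against 4638 units). Gfap and Aqp4 lay below the median on every array. Of 4 tested genes Fabp7 was higher in early and Slc1a3 in late cells, and the median log2 difference, early minus late, was -0.77. For oligodendrocyte precursors the sums were 2708 to 3143 against 864 to 1109.9 units, the early ones mostly from Olig1 (mean of 2149 units). Of 4 tested genes 2 were higher in early and 1 in late cells. For GABAergic and Purkinje cells the sums were 786 to 1526 against 293 to 461 units, with 2 of 3 tested genes higher in early cells. Of 5 tested granule cell precursor genes 4 were higher in late cells (sums of 18632 to 25929 against 48712 to 53935 units). These 4 and the sums include Atoh1, on which the labelling rests, so it is no independent marker here.

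Ribonucleotide reductase was higher in late cells in both subunits. Rrm1, the large subunit that holds the active and regulatory sites, read 666, 475 and 391 units on the 3 early arrays and 2447, 2291 and 2321 units on the 3 late arrays of its brightest probe set, 1415878_at. The late arrays lay within a narrow range far above all early arrays. The group means were 511 ± 141 and 2353 ± 83.2 units (SD, n = 3), a log2 difference, early minus late, of -2.24 ± 0.24 (SE), or 4.72-fold (limma adjusted p = 0.0024). The second Rrm1 probe set, 1448127_at, read 288, 132 and 152 units on early and 549, 449 and 489.8 units on late arrays. It showed a smaller difference, 2.76-fold (limma adjusted p = 0.0224). That call was lost without early array 3 (adjusted p = 0.0557) and without late array 1, 2 or 3 (0.0824, 0.0643 and 0.0786). The remaining Rrm1 probe set, 1440073_at, read 17.3 to 37.2 units on all arrays and was not tested.

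Rrm2, the small subunit whose radical drives the reaction, gave the brightest probe set of its own at 2158, 2233 and 2647 units on early and 12465, 10021 and 9254 units on late arrays (1434437_x_at). No early array came near a late one. The difference was -2.17 ± 0.20 on the log2 scale, or 4.49-fold (limma adjusted p = 0.00181). The suffix x marks probe sets whose probes may also match other transcripts. The 2 other Rrm2 probe sets do not carry it and showed differences of similar size. For 1448226_at the arrays read 851, 474 and 829 units in the early and 4417, 3548 and 3584 units in the late group, 5.51-fold apart (limma adjusted p = 0.00282). For 1416120_at they read 263, 74.2 and 159.6 against 726, 789 and 863 units, 5.42-fold apart (limma adjusted p = 0.0126, and 0.0534 without late array 3).

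Rrm1 and Rrm2 differed between the groups to a like extent on their brightest probe sets, while Rrm2 stood apart from Rrm2b, the small subunit that is induced by p53 and used outside S phase. The log2 ratio of Rrm1 to Rrm2 within an array was -1.70, -2.23 and -2.76 on early and -2.35, -2.13 and -2.00 on late arrays, with overlapping groups. The change of this ratio was -0.07 (exact permutation test over arrays, two-sided p = 0.9, adjusted 0.9), and it was 1.16 when the mean over each gene's probe sets was used and 0.19 without early array 3. Rrm2b itself read 929.7 ± 139 units in early and 876 ± 98.2 units in late cells (limma adjusted p = 0.799). The log2 ratio of Rrm2 to Rrm2b was 1.16, 1.52 and 1.34 on early and 4.01, 3.37 and 3.38 on late arrays. The groups did not overlap, and the ratio differed by -2.25, or 4.75-fold (exact permutation p = 0.1, adjusted over 5 pairs 0.125). With 3 arrays against 3 the smallest p this test can give is 0.1.

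On early arrays the single-gene probe sets of Tyms read below the array median, and that of Tk1 read above it on 1 array. A brighter probe set that Tyms shares with a pseudogene is given at the end. Tyms read 94.6, 36.2 and 7.25 units on early and 182, 281 and 233 units on late arrays of its brightest single-gene probe set, 1438690_at. All early arrays lay below their array's median and all late arrays above. The difference of -2.97 ± 0.89 did not pass (limma adjusted p = 0.0543), and it passed without early array 1 (0.0201) or early array 3 (0.0375). When dimmer signals were set to the array median as a floor, the fold was 2.14 (adjusted p = 0.0072). The second tested Tyms probe set, 1442192_at, read 19.6, 24.9 and 1.35 against 152, 126 and 111 units and passed (limma adjusted p = 0.0456), with late signals only slightly above the array medians. Under the same floor its fold was 1.20 (adjusted p = 0.347). The call was also lost without early array 1 (adjusted p = 0.053) and without late array 1, 2 or 3 (0.131, 0.118 and 0.118). The other Tyms probe sets, 1427811_at and 1427810_at, read 1.34 to 52.6 and 2.17 to 17.5 units and were not tested.

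Tk1, the cytosolic thymidine kinase that is degraded as cells leave mitosis, read 264, 77.2 and 9.63 units on early and 951, 929 and 493 units on late arrays. Every late array lay above every early array, but the early arrays spread over more than an order of magnitude. The difference of -3.70 ± 1.15 did not pass (limma adjusted p = 0.0604). It passed without early array 1 (0.0223) or early array 3 (0.0452), and with the floor at the array median, where the fold was 5.31 (adjusted p = 0.00455). Tk2, the mitochondrial thymidine kinase, read 445 ± 166 units in early and 395.5 ± 26.0 units in late cells (limma adjusted p = 0.806). The log2 ratio of Tk1 to Tk2 was -0.50, -2.08 and -6.04 on early and 1.17, 1.33 and 0.32 on late arrays. The groups did not overlap (change -3.82, exact permutation p = 0.1, adjusted 0.125). The change was -2.52 with the floor, -2.23 without early array 3 and -5.00 without early array 1.

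Dut, the dUTPase that keeps uracil out of DNA, was higher in late cells. Its brighter probe set, 1419270_a_at, read 1258, 1700.4 and 1043 units on early and 4429.8, 3935 and 4006 units on late arrays. The groups lay far apart, by -1.66 ± 0.23 on the log2 scale or 3.15-fold (limma adjusted p = 0.00505). The dimmer one, 1419269_at, read 18.3 to 93.7 units on early and 87.1 to 147 units on late arrays and was not tested.

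**Figure D3:**
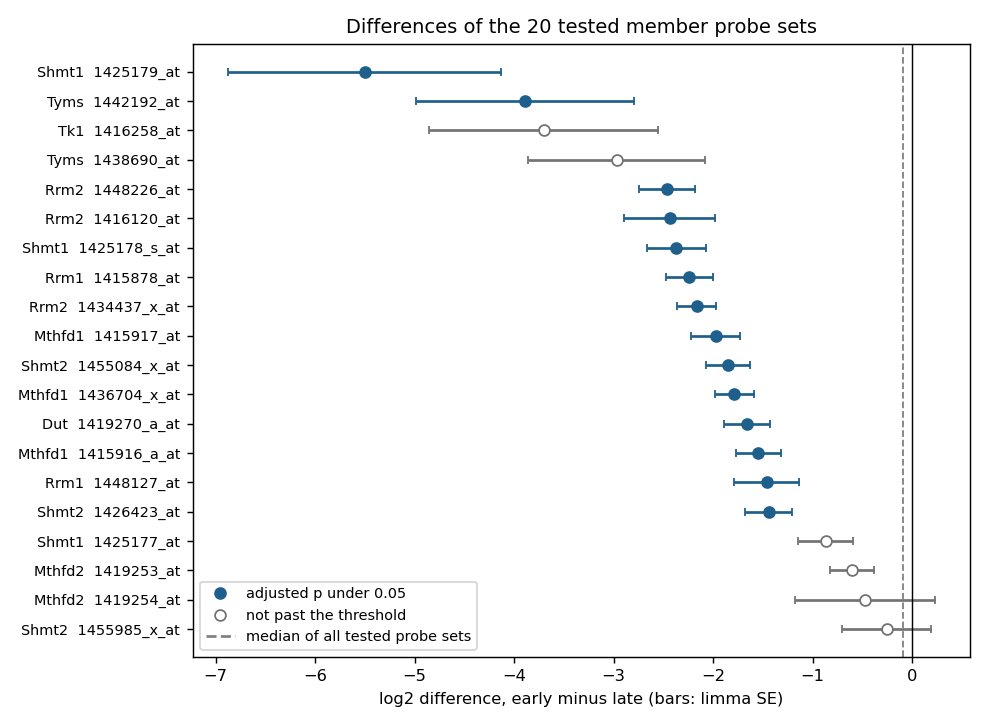
Log2 difference, early minus late, of the 20 tested probe sets (points) with limma's standard error (bars). Filled points passed an adjusted p of 0.05 and the dashed line is the median of all tested probe sets at -0.09. All 20 points lie below 0, and both Mthfd2 probe sets lie among the 4 points nearest to it.

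The serine hydroxymethyltransferases of both compartments had probe sets that passed as higher in late cells and others that did not pass. Shmt1, the cytosolic enzyme, read 593, 310.0 and 485 units on early and 754, 879 and 823 units on late arrays of its brightest probe set, 1425177_at. The groups did not overlap, but the 1.83-fold difference did not pass (limma adjusted p = 0.0632; it passed at 0.0393 without early array 1). Probe set 1425178_s_at read 185, 101 and 199 against 745, 844 and 821 units. This was 5.17-fold (limma adjusted p = 0.0036). Probe set 1425179_at read 6.82, 165 and 3.64 against 784, 657 and 744 units, the widest fold of all 20 tested, 45.3 (limma adjusted p = 0.0318). That fold rests on 2 early arrays near 0, and with the floor at the array median it was 5.73. The call was lost without early array 1 or 3 (adjusted p = 0.08 and 0.0659) and without late array 1, 2 or 3 (0.0985, 0.0889 and 0.0977). The Shmt1 probe set 1422198_a_at read 2.68 to 16.1 units and was not tested.

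Shmt2, the mitochondrial enzyme, read 482, 478 and 693 units on early and 1919, 1814 and 2158 units on late arrays of probe set 1455084_x_at. The late arrays lay well above the early ones, by -1.85 ± 0.22 on the log2 scale or 3.61-fold (limma adjusted p = 0.00307). As its suffix x marks, its probes may also match other transcripts. Probe set 1426423_at, without that suffix, read 114, 134 and 105 against 338, 244 and 391 units, 2.72-fold apart (limma adjusted p = 0.00849). Its early signals lay near the array medians. The other 2 had overlapping groups. Probe set 1455985_x_at read 116, 115 and 196 against 143, 103 and 302 units (-0.26 ± 0.45, limma adjusted p = 0.705, and 0.18 on the log2 scale without late array 3). Probe set 1434204_x_at read 55.1 to 65.9 against 57.3 to 202 units and was not tested. The within-array log2 ratio of Shmt1 to Shmt2 on the brightest probe sets was 0.30, -0.62 and -0.52 on early and -1.35, -1.05 and -1.39 on late arrays, a change of 0.98 toward Shmt1 in early cells (exact permutation p = 0.1, adjusted 0.125), which turned to -1.36 with the mean over each gene's probe sets.

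Of the methylenetetrahydrofolate dehydrogenases, Mthfd1 was higher in late cells on all 3 of its probe sets. Mthfd1, the cytosolic enzyme with 3 activities, read 1149.9, 880.0 and 712 units on early and 2582, 2751 and 2534 units on late arrays of probe set 1415916_a_at. The late arrays differed little from each other and the groups were 2.92-fold apart (limma adjusted p = 0.0057). Probe set 1415917_at read 392, 279 and 258 against 1046, 1110.1 and 1473 units, 3.93-fold apart, and 1436704_x_at 317, 229.8 and 244 against 838, 910.4 and 956 units, 3.45-fold apart (limma adjusted p = 0.00363 and 0.00262). Each of them also passed without any 1 array. Without early array 3 and late array 3 together their adjusted p-values were 0.0603, 0.0515 and 0.0512.

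Mthfd2, the mitochondrial enzyme known from embryonic and cancer cells, read 765, 512 and 559 units on early and 875, 859.5 and 1028 units on late arrays of probe set 1419253_at. The groups did not overlap, but the 1.52-fold difference (-0.61 ± 0.22) did not pass (limma adjusted p = 0.0919; 0.042 without early array 1). Probe set 1419254_at read 875, 911 and 153 against 838, 607 and 645 units, with early array 3 far below all others. Its difference of -0.47 ± 0.70 did not pass (limma adjusted p = 0.654) and turned to 0.37 without that array. The within-array log2 ratio of Mthfd1 to Mthfd2 was 0.59, 0.78 and 0.35 on early and 1.56, 1.68 and 1.30 on late arrays. These groups did not overlap, and the ratio was 1.92-fold higher in late cells (exact permutation p = 0.1, adjusted 0.125).

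**Figure D4:**
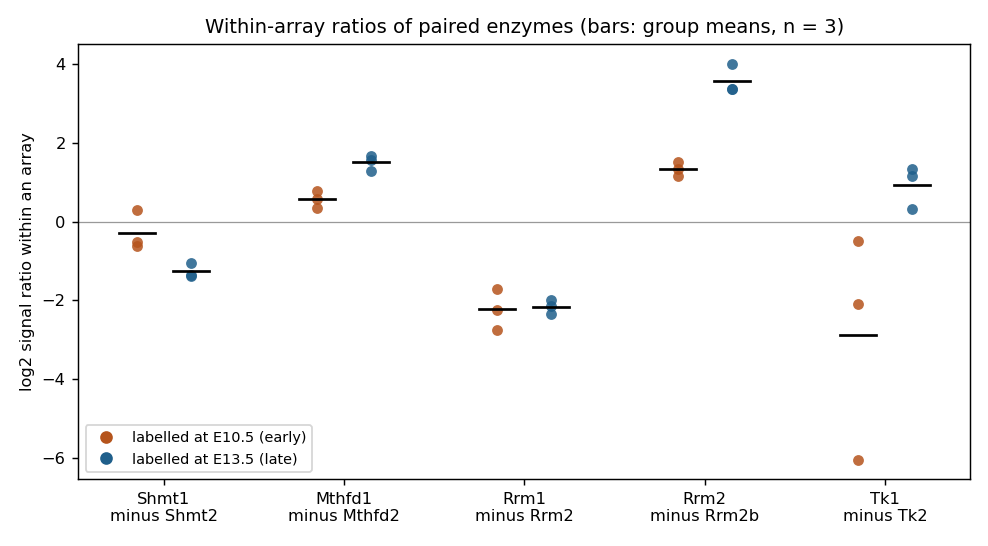
Log2 ratio of the signals of paired enzymes within each array (points, y axis) with group means (bars, n = 3 arrays in each group). The 2 groups separate for 4 of the 5 pairs and overlap for Rrm1 against Rrm2. The height of a ratio depends on the probe sets, so heights cannot be compared between pairs. The shifts of Shmt1 against Shmt2 and of Rrm1 against Rrm2 turned direction with the mean over each gene's probe sets.

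Of 63 tested genes on 6 further lists of nucleotide and one-carbon metabolism, by their brightest probe sets, 24 were higher in late and 4 in early cells, against 13.9% and 16.2% of all 11071 genes tested. These counts are a description, since Mtr, Slc1a5 and Ada reached the test through their late signals alone, and Aldh1l1 and Ampd3 through their early signals alone. Gldc, Slc29a1 and Psph also needed late arrays, with 1, 1 and 2 early arrays above the median. So did Slc46a1 and Slc25a32, with 1 and 2 early arrays above it, which were tested and did not pass. The median log2 difference over all tested genes was -0.03, and over the 9 enzymes, by the same probe sets, -1.85. Without early array 3 and late array 3 together, 4 of the 63 were higher in late and 2 in early cells.

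In serine and glycine supply 6 of 8 tested genes were higher in late and none in early cells, against 13.9% and 16.2% of all genes. The median log2 difference was -1.19. Gldc, the decarboxylase of the glycine cleavage system, read 102, 231 and 104 units on early and 1625, 1243 and 1506 units on late arrays. This gap was 10.7-fold (limma adjusted p = 0.00234). Phgdh, the first enzyme of serine synthesis, was 4.24-fold higher in late cells (3093 ± 241 against 731 ± 94.6 units, limma adjusted p = 0.00164). Psph, the last enzyme of that route, was 2.49-fold higher (limma adjusted p = 0.00548). Slc1a5, a glutamine and neutral amino acid transporter, was 7.79-fold higher, with early signals below the array medians (2.10-fold with the floor at the median).

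On the folate list, 2 of 13 tested genes were higher in late and 2 in early cells, shares near the 13.9% and 16.2% of all genes, and the median was -0.26. Mtr, the methionine synthase, read 17.3, 7.87 and 23.3 units on early and 357, 182 and 337 units on late arrays (limma adjusted p = 0.00266). All early arrays were below their medians, and with the floor there the fold was 2.61. Ggh, which trims the glutamate tail of folates, was 2.56-fold higher in late cells (limma adjusted p = 0.00823). Aldh1l1 and Aldh1l2, the cytosolic and the mitochondrial enzyme that burn formyl-folate to carbon dioxide, were the genes higher in early cells. Aldh1l2 read 1292, 1409.7 and 816 units on early and 398, 473 and 519 units on late arrays, 2.48-fold apart (limma adjusted p = 0.0167). Aldh1l1 was 2.98-fold higher (limma adjusted p = 0.0304), with late signals below the medians and 1.67-fold with the floor (adjusted p = 0.0826). Without late arrays 1, 2 and 3 the adjusted p of Aldh1l2 was 0.0675, 0.0588 and 0.0522, and that of Aldh1l1 0.0879, 0.0497 and 0.0856. It was 0.0689 and 0.0644 for Aldh1l1 without early arrays 1 and 2.

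Among genes of deoxynucleotide supply and control, 4 of 14 tested genes were higher in late and none in early cells (median -0.36). The shares of all genes were 13.9% and 16.2%. Dtymk, which phosphorylates dTMP next after Tyms and Tk1, read 3112, 3791 and 3511 units on early and 8069, 7004 and 6174 units on late arrays, 2.03-fold apart (limma adjusted p = 0.0126). Dctpp1, a pyrophosphatase that removes modified dCTP, was 2.30-fold higher (adjusted p = 0.0115). Slc29a1, a nucleoside transporter, was 2.58-fold higher (adjusted p = 0.0252). Samhd1, which degrades deoxynucleotides, was 2.34-fold higher in late cells too (limma adjusted p = 0.0066). The call of Dtymk was lost without late array 1 or 2 (adjusted p = 0.0553 and 0.053), that of Dctpp1 without late array 1 (0.0503), and that of Slc29a1 without early array 1 or 2 (0.0517 and 0.0527) or late array 2 or 3 (0.0885 and 0.0904).

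De novo purine synthesis had 5 of 12 tested genes higher in late and none in early cells, against 13.9% and 16.2% of all genes (median -0.60). Prps2, which makes the ribose phosphate donor, read 232, 309 and 782 units on early and 2033, 2364 and 2105 units on late arrays, 5.65-fold apart (limma adjusted p = 0.0115). Paics, Gart and Ppat, 3 enzymes that build the purine ring, were 2.83-, 2.19- and 1.83-fold higher (limma adjusted p = 0.008, 0.0137 and 0.0301). Gart and Mthfd1 are linked in the pathway, since Gart uses the formyl-folate that Mthfd1 makes. The call of Gart was lost without late array 3 (adjusted p = 0.0538). That of Ppat was lost without early array 2 or 3 (0.0595 and 0.0653) and without late array 1, 2 or 3 (0.0739, 0.0997 and 0.117).

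De novo pyrimidine synthesis had 2 of 6 genes higher in late and none in early cells, against 13.9% and 16.2% of all genes (median -0.48). With 6 genes these counts are too few to set apart from those shares. Cad, the enzyme of the first 3 steps, read 577, 556 and 428 units on early and 1169, 1346 and 1381 units on late arrays, 2.51-fold apart (limma adjusted p = 0.00625). Umps, which makes UMP, was 2.19-fold higher (adjusted p = 0.0271). The Umps call held only without early array 3 (0.0232) when 1 array was left out, with 0.054 to 0.0917 for the other 5.

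Of 10 tested salvage and breakdown genes 5 were higher in late cells, against 13.9% of all genes, and 2 in early cells, near the 16.2% of all genes (median -0.65). Ampd3, an AMP deaminase, read 318, 266 and 301 units on early and 2.65, 7.45 and 5.02 units on late arrays. The late arrays were all below their medians, and with the floor there Ampd3 was 2.86-fold higher in early cells (adjusted p = 0.000816). The other gene higher in early cells was Ampd2, also an AMP deaminase, 1.99-fold (limma adjusted p = 0.0119), named after its value was seen. Adk, the adenosine kinase, was 3.64-fold higher in late cells (limma adjusted p = 0.00328). Ada, which deaminates adenosine, was 3.75-fold higher (adjusted p = 0.0261; 1.98-fold with the floor), and Pnp, which splits purine nucleosides, 2.43-fold (adjusted p = 0.0374). The Ampd2 call was lost without late array 2 or 3 (adjusted p = 0.056 and 0.0587). The Ada call was lost without early array 2 (adjusted p = 0.051) or late array 1, 2 or 3 (0.0643, 0.0861 and 0.094), and that of Pnp without early array 3 (0.0652) or late array 1, 2 or 3 (0.123, 0.0973 and 0.0996).

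**Figure D5:**
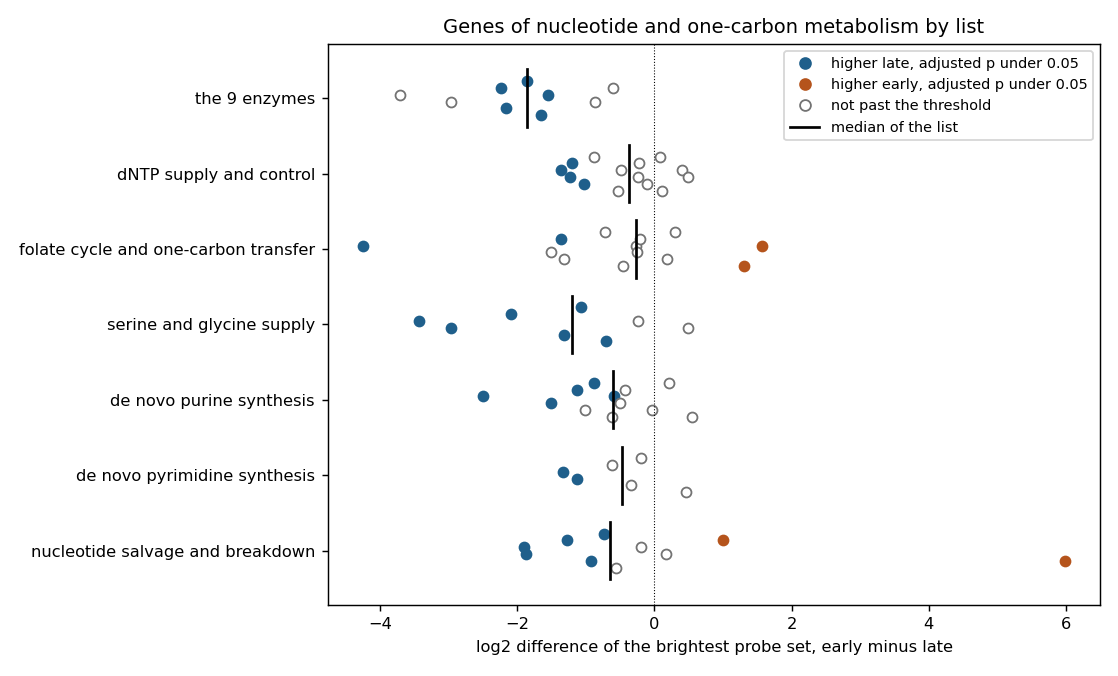
Log2 difference, early minus late, of each tested gene's brightest probe set (points) for the 9 enzymes and 6 further lists, with list medians (black lines). Blue points passed as higher in late and orange points as higher in early cells. Calls toward early cells appear in the folate and the salvage list alone, 2 in each.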

How the data were processed

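The deposited values are linear signal intensities that the authors made with MAS5, per the submitters' processing notes; its version is not given in the sources used here. Each array had been scaled so that its mean without the lowest and highest 2% of signals was 500.003, so total RNA per cell cannot be read. MAS5 subtracts mismatch signals, so dim probe sets scatter widely as logarithms.

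The moderated test of limma 3.58.1 (lmFit, eBayes; R 4.3.3) was run on log2 signals as early minus late. It was two-sided, and p-values were adjusted by Benjamini-Hochberg over the 23491 of 45101 probe sets above their array's median (control probe sets left out) on at least 3 of 6 arrays. The test was tried on simulated data with 50 changed probe sets at each fold among 23491. There it recovered 14% of 2-fold, 52% of 4-fold, 84% of 8-fold and 88% of 16-fold changes. In the real data 25.9% of tested probe sets passed, a far larger share than was changed in the simulation. The adjustment is stricter where fewer probe sets change, so the recovered shares need not hold for the real data. A difference that did not pass does not show equal levels. Genes of the lists were read by their brightest single-symbol probe set, and 932 probe sets with several symbols named no gene. SDs and n refer to 3 arrays, SEs are limma's, and each fold is the antilog of a mean log2 difference. Ratios of paired enzymes were tested by exact permutation over arrays, adjusted over 5 pairs.

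The members, lists, motifs and tests were chosen with earlier results of these data known. Named were all member probe sets, Atoh1 and up to 4 genes past the threshold with the largest difference in each further list, besides the partner genes Rrm2b and Tk2, the list markers given as examples and Ampd2, added after its value was seen. List genes too dim for the filter were not tested, and 5 listed pathway genes without a single-symbol probe set were not analysed here. Alternatives included 2 other scalings, the replicate number as a block, an offset, a floor, other filters and variance models, a stricter threshold and arrays left out, with the tested probe sets kept. Leaving out both arrays with number 3 was added after the data were seen.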

Additional observations from a re-analysis of the deposited data

How the results depend on the processing

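The 20 tested member probe sets kept their direction in all alternatives in which they could be tested, except 1419254_at of Mthfd2 (0.37 without early replicate 3, with -0.91 as the other end of the range over single arrays left out, and 0.32 without early replicate 3 and late replicate 3 together) and 1455985_x_at of Shmt2 (-0.59 to 0.18 over single arrays left out, the latter without late replicate 3). The member count of 14 higher in late cells was 10 to 16 over the other alternatives and 6 without both arrays numbered 3, where 4 arrays were left, with none higher in early cells throughout. Correlations of deviations from the group means between same-numbered arrays were -0.03, -0.07 and -0.01. With 3 arrays in each group these values cannot tell whether the numbers mark a shared litter or batch. With the replicate block, 13 member probe sets passed, and over all probe sets 1587 were higher in late and 2003 in early cells, against 2939 and 3155; of the further pathway genes 2 were higher in early cells. Without a filter 1160 and 1559 of all probe sets and 11 and 1 of the pathway genes passed as higher in late and early cells, and at an adjusted p of 0.01, 984 and 1449, and 11 and 1. With the filter at the 70th percentile 2 pathway genes were higher in early cells. Without 1 array the ranges were 1158 to 2986 and 1779 to 2891 of all probe sets and 14 to 21 and 1 to 4 of the pathway genes, and without both arrays numbered 3 they were 651 and 830, and 4 and 2. The turn of the Shmt1 to Shmt2 ratio to -1.36 and of the Rrm1 to Rrm2 ratio to 1.16 came with the mean over all single-symbol probe sets, which takes in dim ones; without 1 array the latter ran from -0.34 to 0.19, with 0.01 without late replicate 3. Other causes were not tested. Signals near background limit Tyms, Tk1 and 1425179_at of Shmt1.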

Other observations

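A further probe set, annotated to both Tyms and its pseudogene Tyms-ps and therefore not counted above, was the brightest that named Tyms. It read 301, 266 and 315 units on early and 1276, 1423 and 1001 units on late arrays, without overlap, a log2 difference of -2.06 ± 0.20 or 4.16-fold (limma adjusted p = 0.00207). Which of the 2 transcripts gave this signal cannot be told apart on this array.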
